A study of Mus musculus with 6 samples.

Results

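The annexins are a family of proteins that bind negatively charged phospholipids of membranes in the presence of calcium. Of the genes measured in fibrotic mouse kidneys, 10 annexin genes were taken out of 20416, namely Anxa1, Anxa2, Anxa3, Anxa4, Anxa5, Anxa6, Anxa7, Anxa8, Anxa11 and Anxa13. They were chosen by symbol: a probe set belongs to a member where the array's annotation gives it that symbol and no other, which held for 142 of 241576 probe sets, between 8 and 26 per gene. A probe set is a group of probes that reads about the length of an exon, and its place within the gene was not used here. The family was proposed with the differences between the groups already known, so differences and calls of its members are given as a description and support nothing. Anxa9 and Anxa10, which are also on the array, were not listed as members and are described with the partner genes.

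Kidney RNA was hybridised to 6 arrays in groups of 3. B6-TGFbeta (replicates 1, 2 and 3) takes its name from the inbred C57BL/6 background and carries the word WT in its genotype label. CBAxB6-TGFbeta (replicates 4, 5 and 6) takes its name from a cross of CBA with B6 and carries the word KO, with no deleted gene named, so background and any such genotype cannot be told apart. Both groups carry TGFbeta in their names and are labelled with induced renal fibrosis, TGF-β1 being a cytokine that promotes scarring, and no array is from a mouse without it. Littermates matched for sex and age were used according to the labels, but the labels name neither the age nor the promoter that drives TGF-β1 in these mice. Nothing states whether the arrays of a group are separate animals, so error estimates cover the spread between these arrays, which may be technical. The comparison asks how kidneys differ between backgrounds that the title of the series sets apart by their sensitivity to fibrosis.

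The median log2 intensity of an array was 7.27 to 7.34, and arrays correlated at 0.965 to 0.971 within B6-TGFbeta, at 0.953 to 0.963 within CBAxB6-TGFbeta and at 0.946 to 0.954 between groups, across probe sets that are not independent. Kidney markers were present in all arrays. Some arrays stood apart in genes of neighbouring tissue: the summed intensity of 4 brown fat markers was 2431 in B6-TGFbeta replicate 2 and 215 to 256 elsewhere, and that of 6 adrenal cortex markers was 3448 in replicate 2, 876 in replicate 1 and 245 to 278 elsewhere. For 6 white fat markers it was 2609 in B6-TGFbeta replicate 2, 909 in CBAxB6-TGFbeta replicate 4 and 408 to 505 in the other 4 arrays. Albumin (Alb) was high in B6-TGFbeta replicate 2 (9.45) and CBAxB6-TGFbeta replicate 6 (10.94) and lay between 6.00 and 6.29 in the other 4 arrays. Differences of the annexins without B6-TGFbeta replicates 1 and 2, and without CBAxB6-TGFbeta replicate 4, are given beside the results. In whole kidney RNA, fewer cells of a type and less RNA per cell cannot be told apart.

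Annexins share a conserved core that holds calcium between protein and lipid, and differ in their amino-terminal ends, through which many bind S100 proteins or other partners. They take part in membrane repair, vesicle traffic, blood clotting, fibrinolysis and the control of inflammation. In the kidney, several are known from tubular epithelium and from infiltrating leukocytes, and Anxa2 and its partner S100a10 from injured tubules.

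Of the 10 annexin genes, 9 had higher mean values in CBAxB6-TGFbeta kidneys and Anxa11 had a lower one, while 53.9% of all genes had a difference above 0. Anxa1, Anxa3 and Anxa2 differed most, by 1.98-fold, 1.95-fold and 1.77-fold on the linear scale. The arrays of the groups did not overlap for Anxa1, Anxa2, Anxa3, Anxa4, Anxa5 and Anxa13, which were higher, and for Anxa11, which was lower, and they overlapped for Anxa6, Anxa7 and Anxa8. Such separation without overlap was found in 26.8% of all genes, 13.5% higher and 13.4% lower. At an adjusted p under 0.05 in limma, with Benjamini-Hochberg adjustment over all genes, 5 of the 10 were called higher (Anxa1, Anxa2, Anxa3, Anxa5 and Anxa13) and none was called lower, while 7.65% of all genes were called, 3.08% higher and 4.57% lower. Since these differences were known when the family was chosen, nothing is read from that count. The median log2 difference of the members was 0.43, beside 0.02 over all genes. Calls depended on which arrays were used and on how gene values were computed. When gene values were computed anew from 5 arrays, no member was called in the absence of B6-TGFbeta replicate 1, 2 or 3. Calls over all genes also fell, to 59, 77 and 57 in those fits, from 1562 with all 6 arrays. Leaving out CBAxB6-TGFbeta replicate 4 kept the calls of Anxa1 and Anxa3, leaving out replicate 5 that of Anxa1, and leaving out replicate 6 those of Anxa1, Anxa2 and Anxa3. Without these replicates 269, 117 and 554 of all genes were called. With gene values kept from all 6 arrays, 2, 3 and 2 members were called without B6-TGFbeta replicates 1, 2 and 3. Calls over all genes were then 494, 979 and 711. In the fits without CBAxB6-TGFbeta replicates 4, 5 and 6 the counts were 5, 4 and 4 members and 1335, 866 and 1550 genes. Anxa1 and Anxa3 were called in each of these 6 fits. The 5 without CBAxB6-TGFbeta replicate 4 were Anxa1, Anxa2, Anxa3 and Anxa13, called higher, and Anxa11, called lower. Anxa5 was not called in that fit. With both arrays high in albumin left out, the log2 differences of Anxa1, Anxa2, Anxa3, Anxa4 and Anxa5 were 1.15, 1.02, 1.06, 0.43 and 0.55, and those of Anxa6, Anxa7, Anxa8, Anxa11 and Anxa13 were 0.30, 0.25, 0.65, -0.55 and 0.44. The sign of all 10 differences was the same in each of the 22 alternative settings tried. Settings that only drop dim genes or change the moderation of the variances cannot alter a difference.

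**Figure D1:**
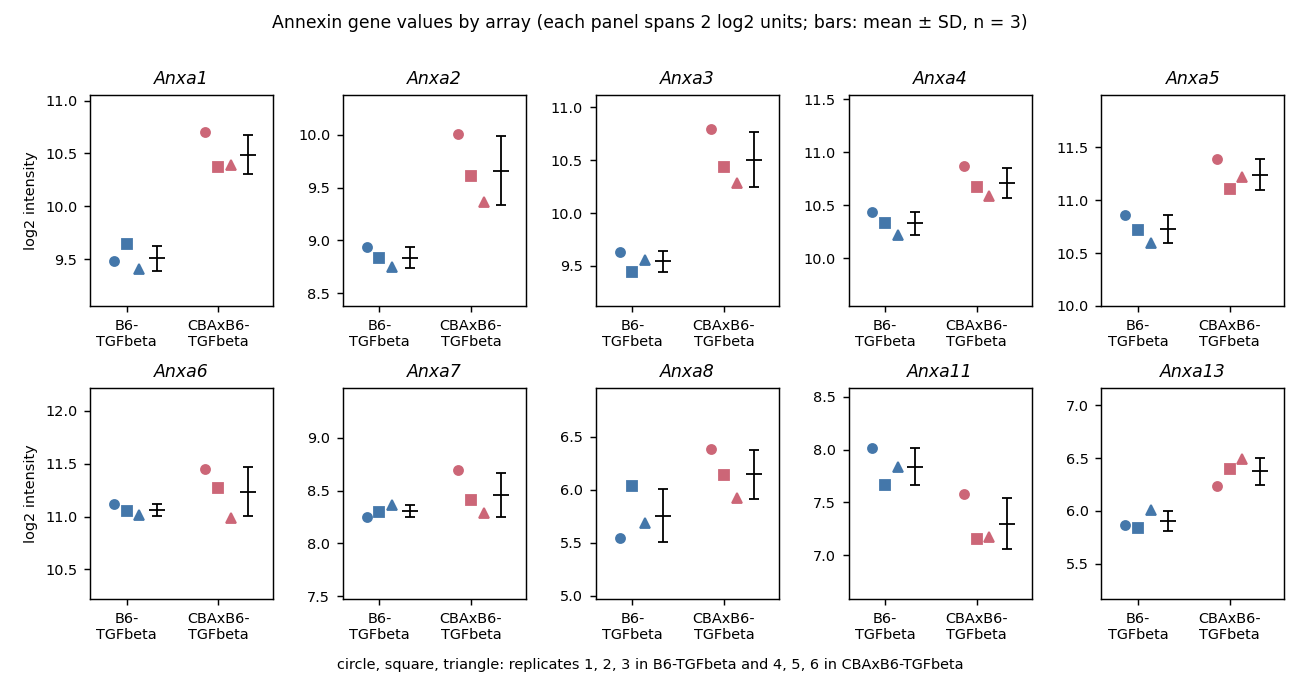
Log2 intensity of the 10 annexin genes in each array (points) with the mean ± SD of each group (bars, n = 3), by group on the horizontal axis; every panel spans the same number of log2 units. The groups do not overlap for 7 genes, and Anxa11 is the gene that lies lower in CBAxB6-TGFbeta.

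Anxa1, Anxa2 and Anxa3 made up the group with the largest differences. Anxa1 is induced by glucocorticoids, is released by leukocytes and epithelium, and limits inflammation through formyl peptide receptors. In B6-TGFbeta replicates 1, 2 and 3 its log2 intensity was 9.48, 9.64 and 9.40, and in CBAxB6-TGFbeta replicates 4, 5 and 6 it was 10.70, 10.38 and 10.39. The lowest CBAxB6-TGFbeta array lay 0.74 above the highest B6-TGFbeta array, the widest gap of the family. The log2 difference was 0.98 (SE 0.12), from means of 9.51 ± 0.12 and 10.49 ± 0.19 (SD, n = 3 each), and ranged from 0.87 to 1.09 over the fits that lacked 1 array. With B6-TGFbeta replicate 3 as the only array of its group, which leaves out the arrays with adrenal and brown fat signal, it was 1.05, and without CBAxB6-TGFbeta replicate 4 it was 0.87.

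Anxa2 forms a complex with S100a10 at the plasma membrane, where it gathers plasminogen and its activator. Its log2 intensity was 8.94, 8.83 and 8.75 in B6-TGFbeta replicates 1, 2 and 3, and 10.01, 9.61 and 9.36 in CBAxB6-TGFbeta replicates 4, 5 and 6. All CBAxB6-TGFbeta arrays were higher, but they were spread more widely (SD 0.33) than the B6-TGFbeta arrays (SD 0.10). The log2 difference was 0.82 (SE 0.16). It was 0.61 without CBAxB6-TGFbeta replicate 4, the highest array, and 0.93 against B6-TGFbeta replicate 3 alone.

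Anxa3 is abundant in neutrophils and is also found in epithelium. It stood at 9.63, 9.44 and 9.56 in the B6-TGFbeta arrays and at 10.80, 10.43 and 10.29 in the CBAxB6-TGFbeta arrays, in the order of the replicates. The groups were 0.65 apart at their nearest arrays. The log2 difference was 0.96 (SE 0.14), 0.81 without replicate 4 and 0.94 against B6-TGFbeta replicate 3 alone. Of 8 measured neutrophil markers none was called higher or lower in limma at an adjusted p under 0.05. Their summed intensity ran from 313 to 364 in B6-TGFbeta and from 346 to 398 in CBAxB6-TGFbeta. These markers had low mean log2 intensities of 4.15 to 6.12, which limits both readings. S100a9 and S100a8 were higher without overlap, by 0.50 and 0.28, as were 13.5% of all genes, and the other markers overlapped. The part of neutrophils in the values of Anxa3 was not tested.

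Anxa5 binds phosphatidylserine, the lipid that dying cells expose, and is used as a probe for it. Its values were 10.86, 10.72 and 10.60 in B6-TGFbeta and 11.39, 11.10 and 11.22 in CBAxB6-TGFbeta. The log2 difference of 0.51 (SE 0.11) was smaller than that of Anxa1, Anxa2 and Anxa3, and the nearest arrays of the groups were 0.24 apart. It was 0.40 without B6-TGFbeta replicate 3, the lowest array, 0.64 with that array alone in its group and 0.44 without CBAxB6-TGFbeta replicate 4.

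Among the annexins of epithelia, Anxa4 lies at the membranes of tubular and other secretory cells. It stood at 10.43, 10.33 and 10.21 in B6-TGFbeta and at 10.87, 10.67 and 10.59 in CBAxB6-TGFbeta. No array of one group reached the other, but the log2 difference of 0.38 (SE 0.11) was not called. It was 0.32 without CBAxB6-TGFbeta replicate 4 and 0.47 against B6-TGFbeta replicate 3 alone. It was called in 3 of the 22 alternative settings, at 0.40 under quantile normalization, 0.41 under median centring and 0.38 with trended and robust moderation of the variances.

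Anxa13, an annexin of intestinal and renal epithelium that carries a lipid anchor, had low intensities of 5.87, 5.84 and 6.01 in B6-TGFbeta and of 6.24, 6.39 and 6.49 in CBAxB6-TGFbeta. The log2 difference was 0.47 (SE 0.11), and the arrays did not overlap. It was the member in which CBAxB6-TGFbeta replicate 4 was the lowest array of its group. Without that array the difference was 0.47, and against B6-TGFbeta replicate 3 alone it was 0.43.

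Anxa8, found mainly in stratified and injured epithelia, stood at 5.55, 6.03 and 5.68 in B6-TGFbeta and at 6.38, 6.14 and 5.92 in CBAxB6-TGFbeta. The groups overlapped, since B6-TGFbeta replicate 2 was above CBAxB6-TGFbeta replicate 6. The log2 difference of 0.39 (SE 0.16) was not called. It was 0.53 without B6-TGFbeta replicate 2, 0.24 without CBAxB6-TGFbeta replicate 4 and 0.66 against B6-TGFbeta replicate 3 alone, and with B6-TGFbeta replicate 2 and CBAxB6-TGFbeta replicate 6 both left out it was 0.65 and was called. The highest array of each group in Anxa8 was also its highest in markers of urothelium, the lining of the renal pelvis. The summed intensity of 5 such genes was 780 in B6-TGFbeta replicate 2, 853 in CBAxB6-TGFbeta replicate 4 and 575 to 608 in 3 other arrays, and it was lowest, at 542, in CBAxB6-TGFbeta replicate 5, which ranked next to the top in Anxa8. None of these 5 genes was called in limma, and their part in the values of Anxa8 was not tested.

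Anxa6, Anxa7 and Anxa11 act mainly in membrane traffic inside the cell. Anxa6, which organises cholesterol-rich membrane and endosomes, stood at 11.12, 11.05 and 11.02 in B6-TGFbeta and at 11.45, 11.27 and 10.99 in CBAxB6-TGFbeta. Its highest and lowest values both lay in CBAxB6-TGFbeta, and the log2 difference was 0.17 (SE 0.13), with a 95% interval from -0.11 to 0.46. It was 0.07 without CBAxB6-TGFbeta replicate 4, 0.25 without replicate 6 and 0.23 against B6-TGFbeta replicate 3 alone.

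Anxa7, or synexin, promotes fusion of secretory vesicles. It stood at 8.25, 8.29 and 8.36 in B6-TGFbeta and at 8.69, 8.41 and 8.28 in CBAxB6-TGFbeta. The groups overlapped, and the log2 difference of 0.16 (SE 0.12; 95% interval from -0.11 to 0.43) was 0.02 without CBAxB6-TGFbeta replicate 4, 0.10 without B6-TGFbeta replicate 2 and 0.12 against B6-TGFbeta replicate 3 alone.

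Anxa11, which has a long amino-terminal end and binds S100a6, was the member with the opposite sign. Its values were 8.02, 7.66 and 7.84 in B6-TGFbeta and 7.58, 7.15 and 7.17 in CBAxB6-TGFbeta. All 3 CBAxB6-TGFbeta arrays were lower, with a gap of 0.08 between B6-TGFbeta replicate 2 and CBAxB6-TGFbeta replicate 4. The log2 difference was -0.54 (SE 0.14), which is 1.45-fold lower in CBAxB6-TGFbeta, and was not called. It was -0.69 without CBAxB6-TGFbeta replicate 4 and -0.51 against B6-TGFbeta replicate 3 alone, and it was called in 5 of 22 alternative settings, among them the mean of the probe sets (-0.66) and array weights (-0.61).

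The upstream sequence of the members could be read for part of the family. RefSeq entries (build GRCm38.p6) were matched by symbol for 7 of the 10 members, with none for Anxa3, Anxa6 and Anxa13, and the 250 bases before each annotated start were searched on both strands for short motifs. Shown are the promoters of Anxa1 and Anxa2, the members with the largest differences among those with an entry, and of Anxa11, the member with the opposite sign. Capitals mark the TATA box (TATAAA), the GC box (GGGCGG, or CCGCCC on the other strand) and the AP-1 motif (TGANTCA), each read 5′ to 3′ on the strand of the gene.
Anxa1, chr19:20390672-20390921, minus strand: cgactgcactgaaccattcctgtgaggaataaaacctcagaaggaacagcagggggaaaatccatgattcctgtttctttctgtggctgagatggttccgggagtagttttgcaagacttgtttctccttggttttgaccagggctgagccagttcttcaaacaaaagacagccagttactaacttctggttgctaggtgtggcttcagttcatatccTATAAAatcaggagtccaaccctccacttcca
Anxa2, chr9:69453433-69453682, plus strand: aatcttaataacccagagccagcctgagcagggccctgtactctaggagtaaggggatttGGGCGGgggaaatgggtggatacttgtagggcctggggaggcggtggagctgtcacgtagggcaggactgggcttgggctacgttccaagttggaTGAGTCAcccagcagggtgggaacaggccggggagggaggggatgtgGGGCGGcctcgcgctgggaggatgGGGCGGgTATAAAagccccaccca
Anxa11, chr14:25841905-25842154, plus strand: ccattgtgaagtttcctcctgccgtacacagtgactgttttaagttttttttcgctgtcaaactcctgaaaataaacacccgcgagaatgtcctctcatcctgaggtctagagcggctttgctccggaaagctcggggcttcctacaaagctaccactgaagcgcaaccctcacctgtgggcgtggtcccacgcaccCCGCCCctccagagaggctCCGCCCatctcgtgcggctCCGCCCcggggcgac

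A TATA box began 32 bases before the start of Anxa1 and 17 bases before that of Anxa2, and 12.4% of the 32851 promoter windows in the table hold this motif. The Anxa2 window also had an AP-1 motif 95 bases before the start, present in 6.75% of all windows, and GC boxes at 190, 48 and 24 bases, a motif present in 32.7%. Anxa11 had no TATA box in this window and GC boxes on the other strand at 53, 34 and 15 bases before its start. Neither the EGR motif (GCGNGGGCG, in 4.7% of all windows, which can overlap a GC box) nor the STAT motif (TTCNNNGAA, in 7.02%) was found in the windows of the 7 members. The loose NF-kB motif (3 G, any 5 bases, then 2 C, in 45.8% of all windows) was found for all of them except Anxa2, at 55 bases before the start of Anxa4, 11 before that of Anxa5 and, overlapping GC boxes, at 38 and 19 before that of Anxa11. A match in letters is a description and not a binding site.

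Single probe sets of the members mostly had the sign of their gene. Of the 142 probe sets, 121 (85.2%) were higher in CBAxB6-TGFbeta, whereas 50% of all probe sets on the array were. These probe sets make up the gene values and measure the same transcripts, so they are not independent of the differences above. Every probe set was higher in Anxa1 (13), Anxa2 (14), Anxa3 (14), Anxa4 (15), Anxa5 (13) and Anxa13 (10), and every one of the 8 in Anxa11 was lower. In a fit with a variance of its own for each probe set, 2 of the 142 were called in limma with Benjamini-Hochberg adjustment over all probe sets, beside 0.535% of all probe sets, and none of the 142 when any of the 6 arrays was left out.

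**Figure D2:**
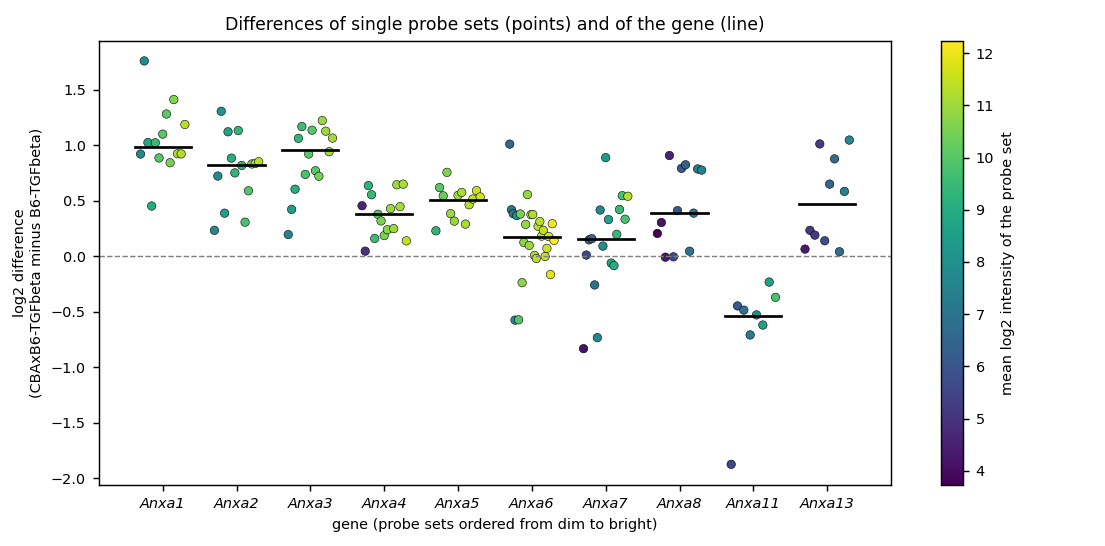
Log2 difference (CBAxB6-TGFbeta minus B6-TGFbeta) of each annexin probe set (points, ordered within a gene from dim to bright and coloured by mean log2 intensity) and of the gene summary (black line). Points of Anxa1 to Anxa5 and Anxa13 lie above 0 and those of Anxa11 below it, with 1 dim Anxa11 probe set at -1.87.

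The probe sets called were 1 of Anxa1, which went from 9.68, 9.99 and 9.99 in B6-TGFbeta to 11.47, 11.27 and 11.16 in CBAxB6-TGFbeta, and 1 of Anxa2, from 7.62, 7.62 and 7.45 to 9.03, 8.82 and 8.76. Their log2 differences of 1.41 (SE 0.18) and 1.31 (SE 0.17) were above those of their genes. Probe sets of Anxa1 ran from 0.45 to 1.76, those of Anxa2 from 0.24 to 1.31 and those of Anxa3 from 0.20 to 1.22, so no probe set of these 3 genes had the opposite sign. The smallest difference in Anxa2 and in Anxa3 was that of the dimmest probe set.

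In Anxa4 the brightest probe set differed by 0.14 and the next by 0.65, and the range was 0.05 to 0.65. Anxa5 was the most even of the higher genes, with probe sets between 0.23 and 0.76. In Anxa13 the brightest probe set went from 6.98, 7.20 and 7.26 in B6-TGFbeta to 8.09, 8.36 and 8.13 in CBAxB6-TGFbeta, a difference of 1.05 (SE 0.17), while others lay as low as 0.04. The gene value of Anxa13 was 0.47 by median polish, which follows the middle of the probe sets, and 0.69 when the dimmer ones, up to the median brightness, were left out.

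Anxa7 held probe sets that moved in opposite directions. Its brightest probe set was higher in CBAxB6-TGFbeta (10.98, 11.06 and 10.99 against 11.67, 11.60 and 11.38), and another was lower (7.90, 8.23 and 7.89 against 7.59, 7.21 and 7.03). Neither pair of groups overlapped, and the differences were 0.54 (SE 0.16) and -0.73 (SE 0.21), neither of them called. Of its 17 probe sets 12 were higher, and of the 26 of Anxa6 20 were higher, the latter between -0.57 and 1.01. In Anxa6 a probe set at 10.44, 10.22 and 10.05 in B6-TGFbeta and 9.94, 9.62 and 9.45 in CBAxB6-TGFbeta had a log2 difference of -0.57 without overlap, against the sign of the gene.

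The brightest probe set of Anxa8 had 6.50, 8.28 and 6.22 in B6-TGFbeta and 8.57, 7.63 and 7.13 in CBAxB6-TGFbeta, so that B6-TGFbeta replicate 2 exceeded all arrays but CBAxB6-TGFbeta replicate 4. The dimmest probe set of Anxa11 stood out from the other 7. Its values were 6.24, 6.85 and 6.33 in B6-TGFbeta and 4.50, 4.15 and 5.15 in CBAxB6-TGFbeta, and the groups differed by -1.87 (SE 0.30), whereas the others differed by -0.71 to -0.23. This probe set was not called, and from the brighter probe sets alone Anxa11 had a difference of -0.44.

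Within CBAxB6-TGFbeta most annexins shared a highest array. The members were proposed with the group differences known, so this pattern cannot be taken as independent of their choice. Replicate 4 was the highest of the 3 arrays in 9 of 10 members, all but Anxa13, and in 31.9% of all genes. Among the 628 genes called higher in CBAxB6-TGFbeta it was the highest in 52.2%. Deviations of replicate 4 from its group mean ran from 0.15 for Anxa5 to 0.35 for Anxa2 in those 9 genes, and replicate 6 deviated by as much as -0.30 in Anxa2. Marker lists differed between the same arrays. The summed intensity of 9 genes of injured tubule was 7837, 6180 and 4986 in replicates 4, 5 and 6 and 2051 to 2129 in B6-TGFbeta, with 6 of the 9 called higher in limma. For 6 macrophage genes it was 2742, 1904 and 2007 against 1089 to 1246 in B6-TGFbeta, with 5 called higher. The 5 proximal tubule markers, all called lower, summed to 4255, 5835 and 5801 in replicates 4, 5 and 6 and to 12147 to 13734 in B6-TGFbeta. For 4 smooth muscle genes, 1 called higher, the sum was 4376, 3473 and 2834 against 2230 to 2743 in B6-TGFbeta. Within CBAxB6-TGFbeta, sums of fibroblast, podocyte, neutrophil, urothelium, mesothelium and white fat markers were also highest in replicate 4. Those of loop and distal tubule, collecting duct, endothelium, T cell, B cell, brown fat, adrenal, liver and skeletal muscle markers were not. The part of these cell populations in the annexin values was not tested. Without replicate 4, Anxa1, Anxa2 and Anxa3 still differed by 0.87, 0.61 and 0.81.

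**Figure D3:**
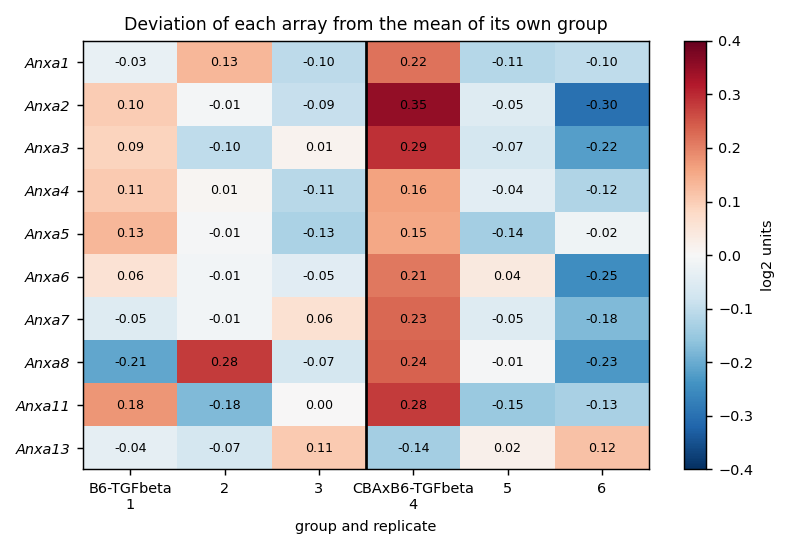
Deviation of every array from the mean of its own group (log2 units, colour and printed value) for the 10 annexin genes, with B6-TGFbeta left and CBAxB6-TGFbeta right of the line. CBAxB6-TGFbeta replicate 4 is positive in 9 genes and negative in Anxa13.

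The genes most like the leading members over the 6 arrays were taken from 10200 non-member genes above the median level, by Pearson's r. These coefficients include the difference between the groups, which many genes share, and describe only these arrays. For Anxa1 they were Rbpj, a mediator of Notch signals (r = 0.995), Nol10 (0.995), the monocyte chemoattractant Ccl2 (0.994) and the growth factor gene Hbegf (0.993). For Anxa3 they were Nfkbiz, a regulator of NF-kB (0.998), Vwa5a (0.997), Tmem176b (0.996) and the chromatin assembly subunit Chaf1b (0.993). For Anxa2 they were the lysosomal enzyme gene Gusb (0.998), Ctps of cytidine nucleotide synthesis (0.997), the cholesterol exporter Abca1 (0.996) and Rgs19 (0.996).

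Partner genes were read from the same fit and are not members. Their lists were drawn up with earlier results of these data known, so their counts and adjusted p are given as a description. Of 42 measured genes in 8 lists, S100a6, S100a10, S100a4 and Myof were higher in CBAxB6-TGFbeta, Mertk was lower and the remaining 37 were not called. The median of all 42 log2 differences was 0.13. Over all genes 3.08% were called higher and 4.57% lower. Against B6-TGFbeta replicate 3 alone, which leaves out the arrays with adrenal and brown fat signal, these 5 genes differed by 1.68, 0.47, 0.57, 1.10 and -0.78, with none called.

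The S100 partners bind annexin amino-terminal ends, and 3 of 5 were higher, with a median of 0.50. S100a6 stood at 8.02, 8.39 and 8.05 in B6-TGFbeta and at 10.39, 9.43 and 9.46 in CBAxB6-TGFbeta. It differed by 1.61 (SE 0.24, adjusted p 0.00522) on the log2 scale. Again replicate 4 was the highest array, and without it the difference was 1.29. S100a10, the partner of Anxa2, had 9.87, 9.62 and 9.73 against 10.49, 10.35 and 10.02, a difference of 0.55 (SE 0.14, adjusted p 0.0417). S100a4 had 6.95, 7.28 and 7.09 against 7.78, 7.46 and 7.58, a difference of 0.50 (SE 0.12, adjusted p 0.0416). In these 3 genes every CBAxB6-TGFbeta array was above every B6-TGFbeta array. S100a11, a partner of Anxa1 that was singled out after its value was seen, differed by 0.39 (SE 0.10, adjusted p 0.0514). In the 6 fits that lacked 1 array and computed gene values anew, 57 to 554 of all genes were called, against 1562 with all arrays. S100a10 and S100a4 missed the threshold in each of these fits (adjusted p 0.0716 to 0.276 and 0.108 to 0.233). S100a6 missed it in 5 of them, with adjusted p of 0.138, 0.0808 and 0.113 when B6-TGFbeta replicate 1, 2 or 3 was absent and of 0.0959 and 0.0696 when CBAxB6-TGFbeta replicate 5 or 6 was. In 6 further fits that kept the gene values from all arrays, S100a6 passed every time (adjusted p 0.00147 to 0.0341), S100a10 passed without CBAxB6-TGFbeta replicate 6 (0.0107, otherwise 0.0908 to 0.127) and S100a4 without B6-TGFbeta replicate 2 (0.0432, otherwise 0.0597 to 0.17).

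Membrane repair genes contained 1 higher gene of 10, Myof, which encodes myoferlin, a calcium-binding protein of membrane fusion. It stood at 8.70, 8.62 and 8.54 in B6-TGFbeta and at 9.96, 9.56 and 9.48 in CBAxB6-TGFbeta, and differed by 1.05 (SE 0.13, adjusted p 0.00256). With gene values computed anew, the adjusted p was 0.145, 0.117 and 0.12 without B6-TGFbeta replicates 1, 2 and 3 and 0.0764 without CBAxB6-TGFbeta replicate 5. Those fits called 59, 77, 57 and 117 of all genes, against 1562 with all arrays. With gene values kept the adjusted p of Myof was 0.00248 to 0.0206 over all 6 arrays left out in turn. Its brightest probe set alone gave 0.47, which did not pass. The related dysferlin gene Dysf, named after its value was seen, had a difference of -0.0027 (SE 0.13).

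Of 10 genes for exposure and recognition of phosphatidylserine, the lipid bound by Anxa5, Mertk was lower. Mertk encodes a receptor kinase by which phagocytes take up dying cells. It stood at 9.93, 9.85 and 9.88 in B6-TGFbeta and at 9.15, 9.02 and 9.15 in CBAxB6-TGFbeta, and differed by -0.78 (SE 0.09, adjusted p 0.00174). With gene values computed anew, the adjusted p was 0.0539, 0.0575 and 0.0561 without B6-TGFbeta replicates 1, 2 and 3. Those fits called 59, 77 and 57 of all genes, against 1562 with all arrays. With gene values kept the adjusted p of Mertk was 0.00316 to 0.0158 over all 6 arrays left out in turn. The brightest probe set alone gave -0.46, which did not pass.

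No gene passed in the other 5 lists. The receptor gene Fpr1 and its relative Fpr2, through which Anxa1 acts, had low intensities, with log2 differences of 0.31 (SE 0.11, adjusted p 0.127) and -0.08 (SE 0.20, adjusted p 0.861). In the plasminogen list of 4 measured genes, the urokinase receptor gene Plaur differed by 0.77 (SE 0.21, adjusted p 0.0555) and the tissue activator gene Plat by 0.50 (SE 0.17, adjusted p 0.121). Its remaining genes, Plg and Plau, differed by 0.21 and -0.23, both with overlapping groups. In the list of small calcium-binding proteins of the penta-EF-hand type, Gca differed by -0.25 (SE 0.13) and Sri by -0.13 (SE 0.11). In the phospholipase A2 and glucocorticoid list, Pla2g4a, the enzyme that releases arachidonic acid, differed by 0.37 (SE 0.12, adjusted p 0.104). Fkbp5, a glucocorticoid target, differed by 0.62 (SE 0.33, adjusted p 0.337) with overlapping groups. The remaining genes of this list, Nr3c1, Tsc22d3, Dusp1 and Per1, differed by -0.11, -0.14, -0.23 and -0.22. The median of the list was -0.12. Of the annexins outside the family list, Anxa9 differed by -0.36 (SE 0.15, adjusted p 0.213) and Anxa10 by 0.16 (SE 0.14, adjusted p 0.597), both with overlapping groups. Adjusted p here is from limma with Benjamini-Hochberg adjustment over all genes.

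**Figure D4:**
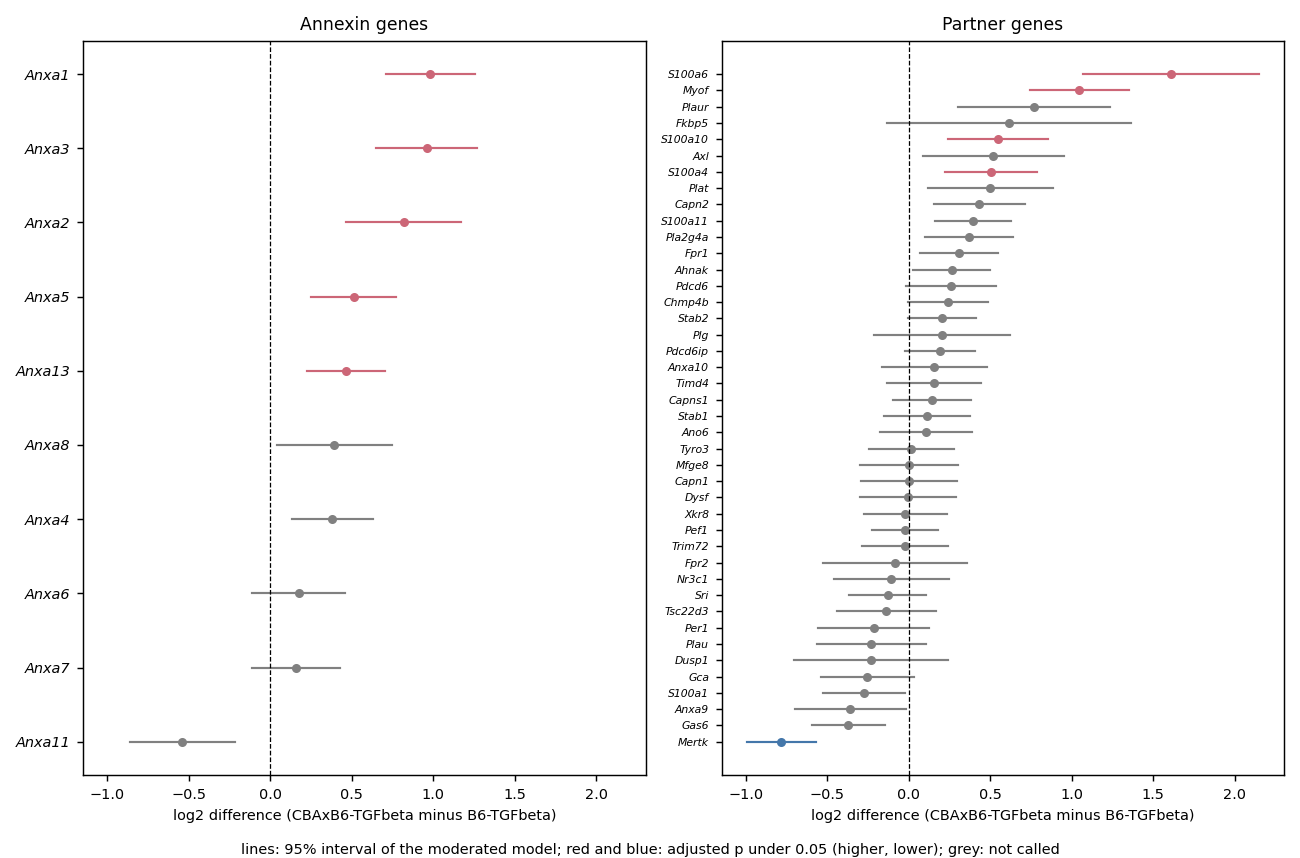
Log2 difference (CBAxB6-TGFbeta minus B6-TGFbeta) with its 95% interval for the 10 annexin genes (left) and 42 partner genes including Anxa9 and Anxa10 (right); red and blue mark genes called higher and lower at an adjusted p under 0.05, grey those not called. S100a6 at 1.61 and Mertk at -0.78 mark the ends of the partner genes, and Anxa11 is the annexin below 0.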

How the data were processed

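Per the submitters' processing notes, RMA and Partek were used, without versions or settings, and the build of the annotation is not stated. The deposited table holds log2 intensities, 1 row per exon-level probe set. Of 241576 rows, 212097 carried 1 gene symbol in the array annotation, 4475 several and 25004 none, and those with several or none were left out. Rows of a gene were combined by Tukey's median polish into 20416 genes. Differences are CBAxB6-TGFbeta minus B6-TGFbeta over all 6 arrays, from limma 3.58.1 in R 4.3.3 with 1 group term and moderated variances, two-sided, with Benjamini-Hochberg adjustment over all genes at a threshold of 0.05. Each SE is that of the limma model. Summed intensities add linear gene values of a marker list. Array number limits the precision. The calculations were tested on simulated data with independent noise in every probe set, which does not give error rates for these arrays. Members, partner lists, markers and motifs were chosen with earlier results of these data known. All members were described. Of each partner list, up to 3 passing genes, or 2 with the smallest p, were named, and for the 3 members with the largest differences the 4 genes most like each. The remaining genes of the plasminogen list and of the phospholipase A2 and glucocorticoid list were added after their values were seen. Of 48 listed partner names 42 were measured. The others are not reported here. Alternatives covered scaling, gene summary, filters, variance models and arrays left out.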

Additional observations from a re-analysis of the deposited data

How the results depend on the processing

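Over 22 alternatives, 209 of the 220 values of the members moved by less than the spread between replicates, 11 moved by more and none changed sign. The values without the dimmest 25% of genes and with trended and robust moderation were bound to stay the same, since these settings do not alter a difference. Taking only the brightest probe set per gene, 3 members (Anxa1, Anxa3 and Anxa13), 3 partner genes and 617 genes in all were called, against 5, 5 and 1562. With B6-TGFbeta replicate 3 as the only array of its group, a fit in which it is assumed to vary like the other group, these counts were 0, 0 and 40. Partner genes called numbered 8 with median centring, 8 without the dimmest 25% of genes, 9 with trended and robust moderation and 11 with array weights. In the same settings 1557, 1727, 1659 and 2243 genes in all were called. Leaving out 1 array at a time and computing gene values anew, 0 to 3 members, 0 to 3 partner genes, 57 to 554 genes and none of the probe sets of members were called, where 2 of the 142 had been. With gene values kept from all 6 arrays, an alternative chosen after seeing the data, 2, 3 and 2 members and 494, 979 and 711 genes were called without B6-TGFbeta replicates 1, 2 and 3, and 5, 4 and 4 members and 1335, 866 and 1550 genes without CBAxB6-TGFbeta replicates 4, 5 and 6, with 3 to 8 partner genes. The 5 members called without CBAxB6-TGFbeta replicate 4 included Anxa11, which was lower, and did not include Anxa5. With the arrays highest in albumin left out together, also chosen after seeing the data, 1005 genes and 4 members (Anxa1, Anxa2, Anxa3 and Anxa8) were called. The cause was not tested. No paired analysis was possible because the groups share no replicate numbers. Low intensities limit Anxa8 and Anxa13.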
